A study of Homo sapiens with 27 samples.

Results

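A549 and Caco2 are 2 long-established human epithelial cancer lines, the first from a lung adenocarcinoma and the second from a colorectal adenocarcinoma. The comparison was defined by the cell line label: 3 libraries labelled A549 against 3 labelled Caco2, out of 27 libraries from 9 lines. Neither line carried a treatment or an engineered allele in the labels. A549 was grown in DMEM and Caco2 in EMEM, both with 10% serum, so that the line and its medium cannot be told apart. Each group is 1 line, and nothing in it stands for other lung or colon tumours. The series calls the libraries of a line biological replicates without saying how they were separated. The P numbers in the titles, 3 to 6 for A549 and 7 to 9 for Caco2, have no stated meaning and do not overlap between the lines.

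Poly-A RNA was sequenced and quantified per transcript. The 6 libraries held between 15597117 and 28923542 estimated counts, and between 11543 and 11982 protein-coding genes reached 1 TPM (a level scaled for transcript length and library total) in each. Within a line the libraries correlated with a Spearman rho of 0.969 to 0.989 across genes, and between the lines with 0.753 to 0.777. Caco2 replicate 2 correlated less with the other Caco2 libraries (0.969 and 0.973) than those did with each other (0.977), and calls that rest on it are marked below. Levels are given as TPM in the order of replicates 1, 2 and 3. Differences are log2 of A549 over Caco2 fitted by edgeR's quasi-likelihood test to estimated counts, with the standard error (SE). A gene was called when its Benjamini-Hochberg adjusted p was under 0.05 and its difference at least 2-fold; "rose" and "higher" below refer to A549 and "fell" and "lower" to genes with less in A549.

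The lung alveolus is lined by surfactant-secreting type 2 cells, which depend on the transcription factor NKX2-1, and the airways by mucus-secreting and ciliated cells. Absorptive enterocytes of the intestine carry a brush border of villin-based microvilli, studded with digestive enzymes and transporters, under the control of CDX and HNF factors. Caco2 is known for acquiring such features in culture, together with the secretion of lipoproteins. A549 is widely used as a type 2 cell model.

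Of 17220 genes tested, 3696 were higher in A549 and 3405 lower, so that 41.2% were called in either direction, 21.5% higher and 19.8% lower. These shares are the background for every gene list below. The low-count filter used all 27 libraries, so some tested genes, such as DLK1 of the oncofetal list, had 0 counts in all 6 libraries. With only the 6 libraries fitted, 14424 genes were tested, 3271 higher and 3167 lower. The 3 A549 values did not overlap the 3 Caco2 values at all in 60.8% of tested genes. At 16-fold or more there were 1029 higher and 970 lower genes. There were 36 protein-coding genes that averaged 10 TPM or more in A549 and had 0 counts in all 3 Caco2 libraries, and 37 showed the reverse.

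The 12 protein-coding genes with the largest fitted rise among those reaching 10 TPM were CNTN1, ANTXR1, AKR1B10, MUC5B, HSPA1A, TBX18, PDE4B, TM4SF18, SGCD, TFPI2, THBD and PRAME. CNTN1, an adhesion molecule best known from neurons, was at 362, 391 and 479 TPM in A549 and 0 in all 3 Caco2 libraries. Against a floor of 3 counts over the Caco2 group it was at least 28142-fold higher. ANTXR1, an anthrax toxin receptor that binds collagen, was at 88.2, 78.2 and 78 TPM in A549 and 0 in all 3 Caco2 libraries and at least 6761-fold higher. TBX18, a developmental T-box factor, was at 40.0, 40.7 and 49 TPM in A549 and 0 in all 3 Caco2 libraries, and THBD, the thrombin receptor thrombomodulin, at 40.9, 26.8 and 24.3 TPM in A549 and 0 in all 3 Caco2 libraries. In each of these 4 genes the Caco2 libraries had no reads assigned. The cancer-testis antigen PRAME was at 63.8, 58.5 and 60.6 TPM in A549 and 0.0121, 0 and 0.0184 in Caco2. HSPA1A has a near-identical copy next to it, and its value is uncertain.

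The 12 largest falls were GPC3, APOB, SMIM24, FABP1, HEPH, NPPB, ASGR2, OVOL1, APOC3, CNTN4, SP5 and RBBP8NL. GPC3, a heparan sulfate proteoglycan of fetal liver, was at 0 TPM in all 3 A549 libraries and 359, 217.9 and 308 in Caco2, and at least 9131-fold lower. HEPH, the ferroxidase hephaestin that passes iron out of enterocytes, was at 0 TPM in all 3 A549 libraries and 21.9, 25.9 and 23.8 in Caco2. ASGR2, a subunit of the hepatic asialoglycoprotein receptor, was at 0 TPM in all 3 A549 libraries and 61.6, 67.6 and 55.1 in Caco2. Several of the 12 are known from enterocytes or hepatocytes. All 12 were at 0 counts in the A549 libraries, which a ranking by fitted fall favours. NPPB, the natriuretic peptide BNP precursor, was at 0 TPM in all 3 A549 libraries and 26.7, 306 and 80.0 in Caco2, and its Caco2 level was highest in replicate 2.

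**Figure D1:**
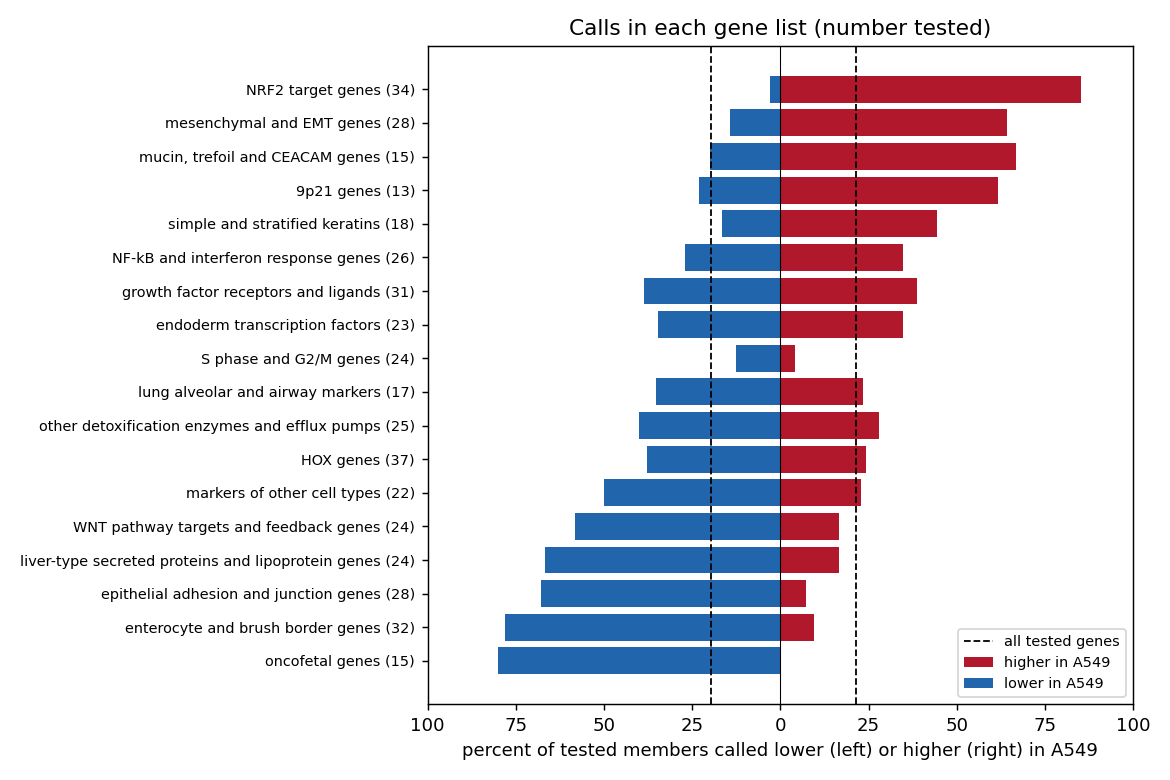
Percent of the tested members of 18 gene lists that were called higher (right, red) or lower (left, blue) in A549, with the number tested in brackets. The dashed lines mark the shares over all 17220 tested genes, 21.5% higher and 19.8% lower. NRF2 targets reach farthest to the right and oncofetal and enterocyte genes farthest to the left.

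Lung genes did not follow the tissue label as a group. Of 24 genes known from alveolar and airway cells, 17 passed the filter on low counts, 4 rose, 6 fell and 7 did not pass the test, with a median log2 difference of -0.53 against 0.00 over all tested genes. The share called lower was above the 19.8% background and the share called higher close to 21.5%. NKX2-1 was at 0.0404, 0 and 0 TPM in A549 and 0.105, 0.106 and 0.183 in Caco2, with no library above 0.183 TPM; its lower call was lost without A549 replicate 2 or 3 (-2.82 and -2.85). SFTPB, which encodes surfactant protein B, was at 0.224, 0.139 and 0.214 TPM in A549 and 0.354, 0.0962 and 0.322 in Caco2 and did not pass. SFTPA1, SFTPA2, SFTPC and SFTPD were too low to test, none above 1 TPM in any library. NKX2-1 and the surfactant protein genes were thus at or near 0 in the line labelled lung. Of the other type 2 genes described below, ABCA3 rose, and LAMP3 and SLC34A2 fell.

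The lung-list genes that did rise were 2 gel-forming mucins, a caveolar protein and a lipid transporter. MUC5AC, an airway and gastric mucin, was at 66.7, 111 and 138 TPM in A549 and 0.0077, 0 and 0.0166 in Caco2, with a difference of 13.55 ± 0.68. MUC5B, the other large airway mucin, was at 67.7, 91.7 and 89.5 TPM in A549 and 0.0117, 0 and 0 in Caco2. CAV1, the caveolin abundant in alveolar type 1 cells and in many mesenchymal cells, was at 505, 391 and 261 TPM in A549 and 0.962, 0.345 and 1.79 in Caco2 and rose by 8.70 ± 0.45. ABCA3, the transporter that loads phospholipid into lamellar bodies, was at 19.5, 22.4 and 18.2 TPM in A549 and 1.39, 2.38 and 2.49 in Caco2 and rose by 3.48 ± 0.36. For each of these 4 genes the lowest A549 library lay above the highest Caco2 library.

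Other genes of the list were higher in the colon line. LAMP3, also called DC-LAMP and found in lamellar bodies, was at 0.283, 0.231 and 0.129 TPM in A549 and 30.9, 15.3 and 33 in Caco2, a difference of -7.35 ± 0.52. TMPRSS2, a membrane serine protease of airway, gut and prostate epithelium, was at 0, 0.033 and 0.258 TPM in A549 and 49.8, 24.7 and 54.6 in Caco2. FOXJ1, the master factor of motile cilia, was at 0.131, 0.0603 and 0.0632 TPM in A549 and 5.78, 2.3 and 4.14 in Caco2, and SLC34A2, the phosphate transporter of type 2 cells, at 0.0203, 0.0124 and 0.0521 TPM in A549 and 0.914, 2.07 and 2.57 in Caco2. All 4 were called lower in A549, and their groups did not overlap.

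**Figure D2:**
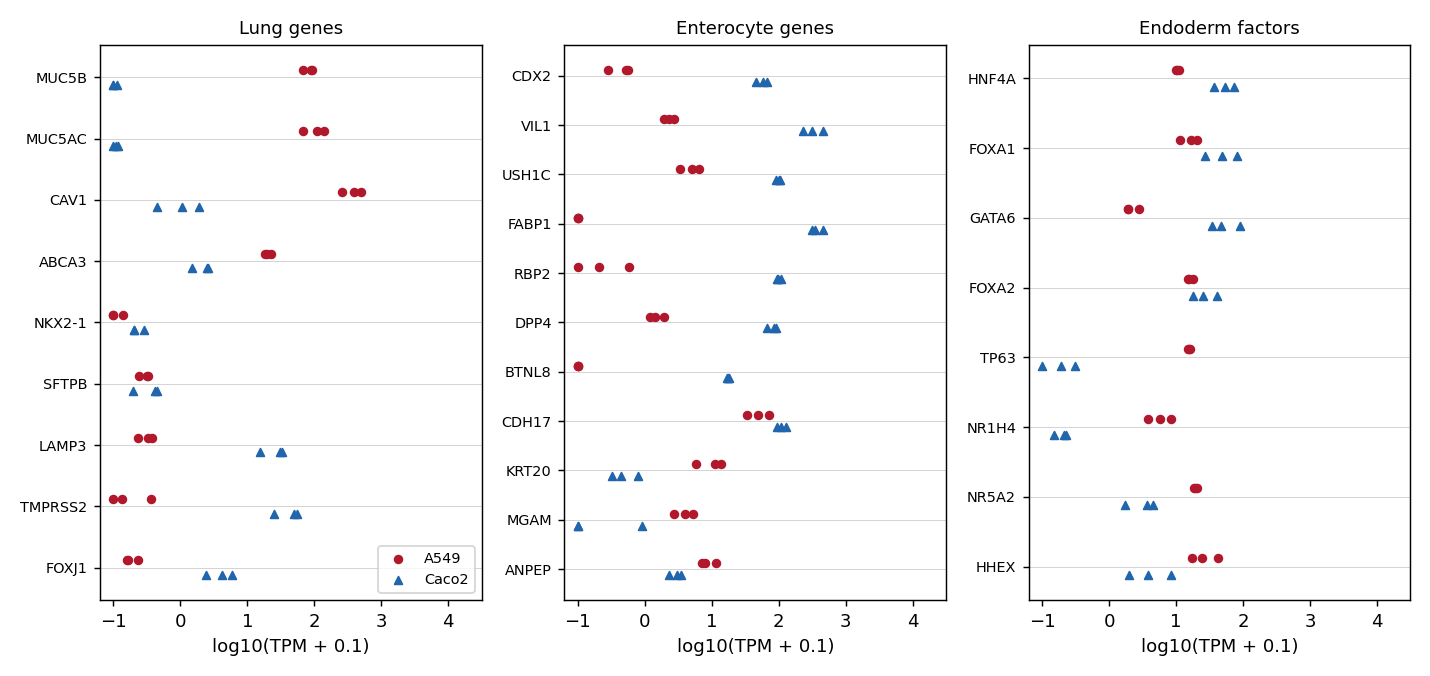
Level of lung, enterocyte and endoderm genes in each library on a log10(TPM + 0.1) axis, where -1 stands for a level of 0. Circles are the 3 A549 and triangles the 3 Caco2 libraries. MUC5B and MUC5AC lie to the right in A549 and most enterocyte genes in Caco2, while KRT20, MGAM and ANPEP lie the other way.

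The enterocyte programme was on the Caco2 side. Of 36 listed genes, 32 were tested, 25 fell in A549, 3 rose and 4 did not pass, with a median difference of -4.18. The 19.8% background for lower calls compares with 25 of 32 here. CDX2, the intestinal homeobox factor, was at 0.457, 0.416 and 0.186 TPM in A549 and 57.9, 46 and 65.9 in Caco2, a difference of -7.67 ± 0.41 (adjusted p = 6.41e-11, edgeR). Its relative CDX1 was at 0 in all 6 libraries. VIL1, villin of the microvillus core, was at 1.85, 2.22 and 2.66 TPM in A549 and 231, 313 and 455 in Caco2 and fell by 6.31 ± 0.54 on the log2 scale. USH1C, the scaffold harmonin of the intermicrovillar links, was at 3.22, 5 and 6.41 TPM in A549 and 92.4, 99.2 and 104 in Caco2.

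Of the 25 enterocyte genes that fell, several were carriers, surface proteins or transporters. FABP1, the liver-type fatty acid binding protein, was at 0 TPM in all 3 A549 libraries and 458, 346 and 313 in Caco2, at least 2365-fold lower in A549. FABP2, the intestinal type, was at 0.0352, 0.0431 and 0.0226 TPM in A549 and 0.06, 0 and 0.0319 in Caco2 and did not pass. RBP2, which carries retinol in enterocytes, was at 0, 0.478 and 0.111 TPM in A549 and 107, 97.3 and 95 in Caco2 and fell. BTNL8, a butyrophilin-like molecule of gut epithelium, was at 0 TPM in all 3 A549 libraries and 17.2, 16.9 and 18 in Caco2, and ISX, the intestine-specific homeobox factor, at 0 TPM in all 3 A549 libraries and 6.31, 2.16 and 3.98 in Caco2. Neither BTNL8 nor ISX had an assigned read in A549. The peptidase DPP4 was at 1.34, 1.09 and 1.87 TPM in A549 and 84.5, 66.2 and 91.7 in Caco2, intestinal alkaline phosphatase ALPI at 0.048, 0.0587 and 0 TPM in A549 and 8.36, 8.47 and 15 in Caco2, and the peptide transporter SLC15A1 at 0, 0.0939 and 0.0232 TPM in A549 and 3.67, 5.39 and 5.51 in Caco2.

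Late brush border enzymes were low in Caco2 as well. SI, sucrase-isomaltase, was at 0.0137, 0 and 0 TPM in A549 and 1.27, 0.216 and 0.607 in Caco2, and LCT, lactase, at 0.0241, 0.008 and 0 TPM in A549 and 0.176, 0.287 and 0.197 in Caco2. Both were called lower in A549, but no Caco2 library exceeded 1.27 TPM for either, and SI was not called with DESeq2 (adjusted p = 0.128). CDH17, liver-intestine cadherin, was expressed in both lines, at 33.1, 49.5 and 70.4 TPM in A549 and 107, 93.5 and 129 in Caco2, and differed by -1.25 ± 0.34; without A549 replicate 1 the difference was -0.99 and not called. EZR, the membrane-cytoskeleton linker ezrin, was at 253, 268 and 213 TPM in A549 and 196, 172 and 200.4 in Caco2 and did not pass.

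The 3 list members that rose in A549 are markers of gut differentiation or its enzymes. KRT20, the keratin of upper crypt and villus cells, was at 5.69, 11 and 13.7 TPM in A549 and 0.22, 0.69 and 0.334 in Caco2, a difference of 4.45 ± 0.67. MGAM, maltase-glucoamylase, was at 2.63, 3.83 and 5.14 TPM in A549 and 0.82, 0 and 0 in Caco2, and ANPEP, aminopeptidase N, at 11.3, 7.09 and 7.94 TPM in A549 and 3.39, 2.19 and 2.97 in Caco2. None of the 3 overlapped between the lines.

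The promoters of enterocyte genes offer a place to look for the CDX recognition sequence, here taken as TTTATNG on either strand. It was found in 9.73% of all 35116 promoter windows of RefSeq on GRCh38.p14, which run from 250 bases before to 50 after each gene start. Only 27 of the 36 enterocyte genes had a window. Of their 32 windows, 9 (28.1%), belonging to 8 genes, held it. Read on the other strand it is CNATAAA, which overlaps the TATA box TATAAA. The bases before the start of 2 genes lower in A549 are shown, with the motif or its reverse complement in capitals. The SI stretch is chr3:165078497-165078746 and the FABP1 stretch chr2:88128063-88128312, both on the minus strand and read 5′ to 3′. The match nearest the FABP1 start is also a TATA box.
SI: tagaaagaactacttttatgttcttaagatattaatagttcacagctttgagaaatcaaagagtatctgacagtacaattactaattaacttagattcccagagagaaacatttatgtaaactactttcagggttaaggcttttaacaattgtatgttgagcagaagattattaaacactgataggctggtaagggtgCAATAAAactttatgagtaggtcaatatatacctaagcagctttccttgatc
FABP1: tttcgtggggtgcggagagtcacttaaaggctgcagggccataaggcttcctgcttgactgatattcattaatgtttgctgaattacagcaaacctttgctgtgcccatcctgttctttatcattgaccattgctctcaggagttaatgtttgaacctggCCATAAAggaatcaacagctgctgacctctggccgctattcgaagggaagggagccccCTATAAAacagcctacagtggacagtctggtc
A match is a description of the letters, and binding was not measured in these libraries.

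Endoderm transcription factors were split evenly, with 8 of 23 tested higher, 8 lower and 7 not passing. HNF4A, a nuclear receptor of liver, gut and kidney epithelium, was at 11, 10.2 and 9.77 TPM in A549 and 54.4, 36.3 and 72.8 in Caco2, a difference of -2.63 ± 0.23. GATA6, a zinc finger factor of gut and lung epithelium, was at 1.79, 1.79 and 2.69 TPM in A549 and 88.7, 34.6 and 46 in Caco2, the largest fall in the list among genes above 5 TPM in Caco2, -4.81 ± 0.42. The pioneer factor FOXA1 was at 11.2, 16.7 and 20.1 TPM in A549 and 81.1, 26.4 and 48.3 in Caco2, and its highest Caco2 level was in replicate 1. FOXA2 was at 15.2, 15.5 and 17.9 TPM in A549 and 41.2, 17.6 and 24.8 in Caco2 and did not pass, but without Caco2 replicate 2 its difference was -1.07 and called.

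On the A549 side stood TP63, the basal and squamous cell factor p63, at 14.8, 16.2 and 15.7 TPM in A549 and 0.0886, 0 and 0.21 in Caco2, with a difference of 8.09 ± 0.52. NR1H4, the bile acid receptor FXR, was at 3.76, 5.59 and 8.21 TPM in A549 and 0.127, 0.11 and 0.0514 in Caco2, and NR5A2, the receptor LRH-1, at 20.3, 18.6 and 19.3 TPM in A549 and 4.45, 1.62 and 3.62 in Caco2. HNF4G was at 5.24, 5.8 and 9.39 TPM in A549 and 1.24, 0.679 and 1.19 in Caco2, opposite in direction to HNF4A. HHEX, a homeobox factor of foregut and liver, was at 17.4, 24.1 and 42.7 TPM in A549 and 8.35, 1.85 and 3.73 in Caco2. SOX9, a progenitor factor of gut and lung, was at 13.5, 20.5 and 25.6 TPM in A549 and 43, 22.9 and 21.9 in Caco2 and did not pass.

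Liver-type secreted proteins separated into apolipoproteins with Caco2 and fibrinogen with A549. Of 24 genes, all tested, 16 fell in A549, 4 rose and 4 did not pass, with a median difference of -5.01. APOA2, a protein of high density lipoprotein, was at 0, 0.789 and 1.47 TPM in A549 and 2101, 3345 and 2363 in Caco2. APOA1 was at 0, 0.208 and 0.153 TPM in A549 and 161, 202.5 and 110.2 in Caco2, APOE at 0.785, 0.316 and 0.506 TPM in A549 and 354, 254 and 393 in Caco2 and APOC3 at 0 TPM in all 3 A549 libraries and 194, 169 and 149.9 in Caco2. APOB, the structural protein of chylomicrons and low density lipoprotein, was at 0 TPM in all 3 A549 libraries and 20.3, 13 and 19.6 in Caco2, at least 4646-fold lower in A549. The thyroid hormone carrier TTR was at 0, 0.298 and 0.421 TPM in A549 and 304, 284 and 223 in Caco2, a difference of -10.22 ± 0.63. SERPINA1, alpha-1-antitrypsin, which protects the lung from elastase, was at 1.31, 2.65 and 4.23 TPM in A549 and 476, 511 and 367 in Caco2, far lower in the line of lung origin.

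The 3 fibrinogen chains moved the other way. FGA was at 31.1, 63.2 and 128 TPM in A549 and 18.8, 8.65 and 8.43 in Caco2, FGB at 29.8, 78.5 and 179 TPM in A549 and 13.7, 6.63 and 4.71 in Caco2 and FGG at 32.5, 70.0 and 139 TPM in A549 and 12.9, 2.1 and 4.36 in Caco2. The fitted differences were 2.56 ± 0.45, 3.64 ± 0.54 and 3.62 ± 0.49. In each chain A549 replicate 1 was lowest and replicate 3 highest, and all 3 stayed above the highest Caco2 value. CPS1, the first enzyme of the urea cycle, was at 16.4, 19 and 28.8 TPM in A549 and 0.889, 0.294 and 1.46 in Caco2 and rose by 5.11 ± 0.32. APOH, a phospholipid-binding plasma protein, was at 30.5, 73.3 and 145 TPM in A549 and 184, 121 and 101 in Caco2 and did not pass, but without A549 replicate 3 its difference was -1.50 and called.

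Epithelial adhesion genes were mostly lower in A549 and mesenchymal genes mostly higher. Epithelial cells are held together by E-cadherin, claudins and desmosomes, and the ZEB, SNAI and TWIST repressors can shift them toward a mesenchymal state with vimentin and N-cadherin. Of 28 epithelial genes, all tested, 19 fell, 2 rose and 7 did not pass (median -2.39). Of 28 mesenchymal genes, all tested, 18 rose, 4 fell and 6 did not pass (median 1.79).

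E-cadherin, CDH1, was present in both lines at 36.9, 41.3 and 43.7 TPM in A549 and 245, 163 and 239.9 in Caco2, a difference of -2.43 ± 0.34. EPCAM, the surface glycoprotein of most carcinomas, was at 6.28, 9.23 and 10.6 TPM in A549 and 955, 858 and 845 in Caco2 and fell by 6.81 ± 0.48 on the log2 scale. The tight junction gene CLDN7 was at 1.14, 1.54 and 1.5 TPM in A549 and 90.3, 114 and 147 in Caco2 and CLDN4 at 3.51, 5.48 and 4.86 TPM in A549 and 121, 77.8 and 132 in Caco2. RAB25, a small GTPase of apical recycling, was at 0, 0.157 and 0 TPM in A549 and 197, 223 and 207 in Caco2. The matriptase gene ST14 was at 0.143, 0.307 and 0.092 TPM in A549 and 55, 54.1 and 76.9 in Caco2, and its inhibitor SPINT1 at 1.1, 0.703 and 1.4 TPM in A549 and 154, 149 and 218.6 in Caco2. Enzyme and inhibitor fell together.

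Regulators of the epithelial state also fell. GRHL2, the grainyhead factor, was at 0, 0.0614 and 0 TPM in A549 and 16.2, 9.89 and 20.6 in Caco2, a difference of -10.78 ± 0.50. OVOL1, a zinc finger repressor of mesenchymal genes, was at 0 TPM in all 3 A549 libraries and 38.4, 12.3 and 18.4 in Caco2, at least 1305-fold lower. The splicing regulators ESRP1 and ESRP2 were at 0.0557, 0.0911 and 0.0642 TPM in A549 and 114, 50.1 and 85.5 in Caco2 and at 0.457, 0.0272 and 0.0552 TPM in A549 and 32.3, 38.5 and 35.5 in Caco2. These 4 regulators stayed under 1 TPM in every A549 library. CLDN2, a pore-forming claudin, was at 126, 229.7 and 390.2 TPM in A549 and 10.2, 20.8 and 14.2 in Caco2, and the desmosomal cadherin DSG2 at 63, 67.9 and 78.7 TPM in A549 and 14.4, 12.4 and 21.7 in Caco2, and both rose. TJP1, the scaffold ZO-1, was at 28.1, 26.5 and 22.6 TPM in A549 and 32.2, 24 and 28.6 in Caco2 and did not pass.

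Among mesenchymal genes VIM, vimentin, was at 1014, 927 and 749 TPM in A549 and 2.49, 2.74 and 3.16 in Caco2, a rise of 8.27 ± 0.46 (adjusted p = 2.30e-13, edgeR). CDH2, N-cadherin, was at 66.9, 48.5 and 45.5 TPM in A549 and 0.133, 0 and 0.22 in Caco2 and rose by 10.47 ± 0.43. The repressor ZEB1 was at 11.1, 8.94 and 11.5 TPM in A549 and 0.273, 0.0296 and 0.334 in Caco2, ZEB2 at 1.84, 2.05 and 1.12 TPM in A549 and 0.331, 0.562 and 0.643 in Caco2, SNAI2 at 1.19, 0.882 and 0.734 TPM in A549 and 0.0237, 0 and 0.0384 in Caco2 and TWIST1 at 2.38, 1.8 and 1.43 TPM in A549 and 0, 0.0482 and 0 in Caco2. S100A4, a calcium-binding protein linked to motility, was at 3502, 4082 and 4325 TPM in A549 and 19.7, 21.9 and 25 in Caco2. The receptor tyrosine kinase AXL was at 111, 86.9 and 39.4 TPM in A549 and 1.71, 2.05 and 2.72 in Caco2 and the collagen crosslinking enzyme LOXL2 at 112, 73.7 and 29.9 TPM in A549 and 1.2, 0.751 and 0.858 in Caco2. A549 replicate 1 was highest and replicate 3 lowest for AXL and LOXL2.

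SNAI1 did not move with the other repressors: it was at 0.871, 0.633 and 0.419 TPM in A549 and 13.9, 10.9 and 12.8 in Caco2, and fell by 4.41 ± 0.41 on the log2 scale. TAGLN, the actin-binding protein transgelin, was at 69.8, 19.8 and 6.78 TPM in A549 and 154, 1174 and 299 in Caco2 and fell, with its highest level in Caco2 replicate 2. ANKRD1 and CYR61 (CCN1), known targets of the Hippo effector YAP, were at 33.4, 32.6 and 26.8 TPM in A549 and 207, 438 and 206 in Caco2 and at 65.3, 25.2 and 34.8 TPM in A549 and 230.2, 198 and 169.9 in Caco2, while CTGF (CCN2), another such target, was at 62.5, 36.1 and 67.6 TPM in A549 and 0.841, 0.0658 and 0.987 in Caco2. The 3 therefore did not share a direction. FN1, fibronectin, was at 704, 594 and 677 TPM in A549 and 1097, 2069 and 1004 in Caco2 and did not pass. Its fitted difference was 0.21 ± 0.32, in the other direction from its TPM. The fit used counts, which were not scaled for transcript length as TPM is. Why the FN1 values differed was not tested.

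**Figure D3:**
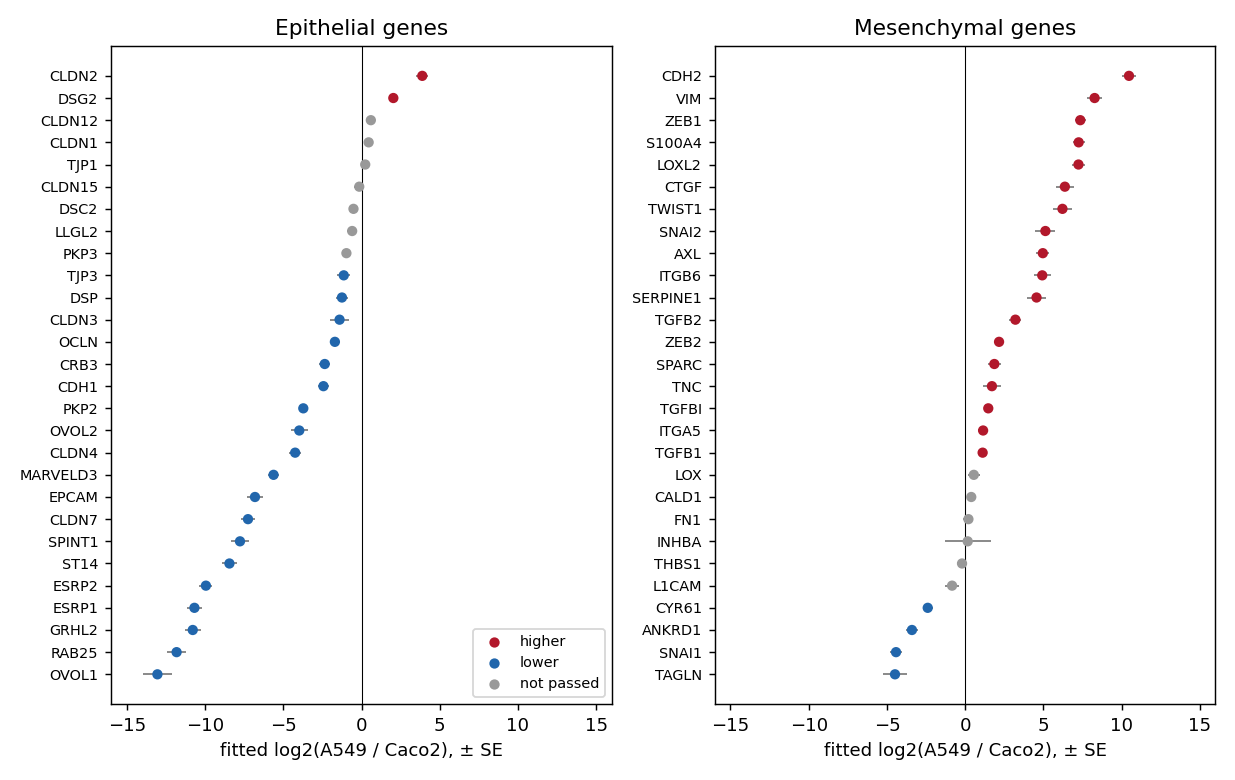
Fitted log2 difference of A549 over Caco2, with its SE, for 28 epithelial and 28 mesenchymal genes. Red points were called higher, blue lower and grey not called; 19 epithelial genes are blue and 18 mesenchymal genes red. For OVOL1, at 0 counts in A549, the fitted position is not a bound.

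ZEB and SNAI proteins bind the E-box CACCTG, which was present on either strand in 20.6% of all promoter windows. Only 16 of the 28 epithelial genes had a window. Of their 25 windows, 12 (48.0%), belonging to 11 genes, held it. The 2 upstream stretches with the most matches are CLDN7, chr17:7262479-7262728 on the minus strand, with 4 matches, and CRB3, an apical polarity gene at 3.01, 8.34 and 7.03 TPM in A549 and 29.6, 27.1 and 38.2 in Caco2, chr19:6464021-6464270 on the plus strand, with 5. Capitals mark CACCTG or its reverse complement CAGGTG.
CLDN7: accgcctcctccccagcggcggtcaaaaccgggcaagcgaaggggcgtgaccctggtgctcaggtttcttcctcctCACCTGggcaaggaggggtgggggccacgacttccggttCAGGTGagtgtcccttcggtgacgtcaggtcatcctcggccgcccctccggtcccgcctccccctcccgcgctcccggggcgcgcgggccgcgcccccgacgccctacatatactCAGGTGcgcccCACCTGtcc
CRB3: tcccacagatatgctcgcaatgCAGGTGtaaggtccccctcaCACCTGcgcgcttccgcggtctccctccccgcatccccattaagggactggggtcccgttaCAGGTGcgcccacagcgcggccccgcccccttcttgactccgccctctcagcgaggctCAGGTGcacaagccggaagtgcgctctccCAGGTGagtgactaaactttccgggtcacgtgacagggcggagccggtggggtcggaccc
Both genes were called lower in A549. No occupancy of these sites was measured, and DSG2, which rose, also held the motif.

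In genes known as targets of ESRP-regulated splicing, some transcript shares did not overlap between the lines and others did. A share is the percent of a gene's TPM assigned to 1 transcript, and 3 against 3 libraries allow a smallest exact two-sided permutation p of 0.1. The main CD44 transcript, with 9 exons and 361 residues, is the standard form without variable exons. It held 52.3, 63.6 and 70.6% in A549 and 38.6, 27.3 and 18.6% in Caco2, which did not overlap (exact permutation p = 0.1). A CTNND1 transcript of 19 exons, coding for a 933-residue form of p120 catenin, held 32.2, 39.2 and 33% in A549 and 0.71, 0 and 0.36% in Caco2. The shorter CTNND1-214, with 610 residues, held 1.22, 1.88 and 2.04% in A549 and 53.9, 48.5 and 6.72% in Caco2, so that 1 Caco2 library differed from the other 2. CTNND1-223, with 832 residues, held 26.89, 18.67 and 24.4% in A549 and 15.36, 27.45 and 48.05% in Caco2. Its groups overlapped (exact permutation p = 0.7).

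ENAH, an actin regulator, has a known epithelial exon. ENAH-204, with 15 exons and 591 residues, held 6.06, 6.53 and 8.18% in A549 and 35, 30.2 and 10.0% in Caco2, and ENAH-203, with 14 exons and 570 residues, 39.2, 34.4 and 24.9% in A549 and 5.08, 1.48 and 25.7% in Caco2. The ENAH-204 groups did not overlap (exact permutation p = 0.1), while Caco2 replicate 3 lay inside the A549 range of ENAH-203. ENAH-202, a retained-intron transcript, held 22.48, 30.26 and 40.37% in A549 and 43.48, 23.68 and 29.4% in Caco2. Its groups overlapped (exact permutation p = 0.8). PKM-202 held 94.8, 94.8 and 88.1% in A549 and 93.8, 93 and 95% in Caco2, with overlapping groups. Transcripts of a gene share most of their reads, and the deposited tables used here carry no uncertainty for the split. FGFR2 was below 5 TPM in A549 and was not used.

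Keratins, the intermediate filaments of epithelium, were partly shared. KRT8 and KRT18, the simple epithelial pair, were at 5007, 5896 and 5443 TPM in A549 and 2347, 3173 and 3087 in Caco2 and at 5348, 6159 and 5326 TPM in A549 and 3226, 5945 and 3657 in Caco2, and neither passed. KRT7, usual in lung and absent from most colorectal carcinomas, was at 1909.6, 1605 and 849 TPM in A549 and 0.846, 1.69 and 1.64 in Caco2, a rise of 11.24 ± 0.69. KRT81, a hair keratin, was at 1367, 1407 and 844 TPM in A549 and 0.319, 0.3 and 0.755 in Caco2, and KRT80 at 101, 79.9 and 44.5 TPM in A549 and 1.88, 3.04 and 4.5 in Caco2. KRT19 was at 315, 402 and 321 TPM in A549 and 775, 756 and 858 in Caco2 and fell by 1.42 ± 0.38 on the log2 scale. Of 18 tested keratins, 8 rose, 3 fell and 7 did not pass. KRT17 was at 0.591, 0.402 and 0.126 TPM in A549 and 2.91, 23.4 and 7.57 in Caco2, again highest in Caco2 replicate 2.

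Mucin, trefoil and CEACAM genes were mostly higher in A549: 10 of 15 tested rose, 3 fell and 2 did not pass. CEACAM6, a surface glycoprotein of many carcinomas, was at 1232, 1198 and 1133 TPM in A549 and 1.98, 15.2 and 5.23 in Caco2, a rise of 7.08 ± 0.66. CEACAM5, the antigen CEA measured in colorectal cancer, was at 16.6, 10.1 and 10.9 TPM in A549 and 1.9, 7.98 and 3.01 in Caco2 and was also called higher in the lung line. The membrane mucin MUC13 was at 30.5, 43.5 and 56.1 TPM in A549 and 7.03, 7.78 and 6.2 in Caco2. The goblet cell trefoil peptide TFF3 fell, at 1.24, 1.22 and 2.92 TPM in A549 and 19, 13.3 and 12.8 in Caco2, while TFF1 rose, at 31.7, 56.2 and 66.7 TPM in A549 and 6.21, 21.9 and 5.01 in Caco2. The CEACAM5 call was lost without A549 replicate 1 (1.05) or Caco2 replicate 1 (0.88) or 3 (1.00) and with only the 6 libraries fitted (1.27, adjusted p = 0.0863, edgeR). Without Caco2 replicate 2 its difference was 2.28 against 1.28 with all libraries. The TFF1 call was lost without Caco2 replicate 1 (1.62) or 3 (1.57). MUC2 had no matched transcript and was not analysed here.

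NRF2 targets were mostly higher in A549. NRF2, encoded by NFE2L2, is a transcription factor held back by KEAP1 and released by electrophiles, and it switches on genes for glutathione, thioredoxin, NADPH and detoxification. Of 34 genes, all tested, 29 rose in A549, 1 fell and 4 did not pass, against backgrounds of 21.5% and 19.8%; the median difference was 2.73. Their summed level was 54229, 59655 and 65057 TPM in A549 and 8239, 9115 and 8862 in Caco2. NFE2L2 itself was at 60.6, 58.8 and 76.9 TPM in A549 and 90.1, 49.8 and 85.8 in Caco2 and KEAP1 at 54.4, 48.5 and 57.5 TPM in A549 and 62.4, 69.4 and 47.4 in Caco2, and neither passed. The other genes that did not pass were HMOX1 and TXN.

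Aldo-keto reductases and aldehyde dehydrogenase led the list. AKR1B10 was at 4041, 5341 and 7141 TPM in A549 and 0.264, 0.38 and 0.184 in Caco2, a rise of 15.30 ± 0.82 (adjusted p = 1.13e-13, edgeR). ALDH3A1 was at 2568, 3399 and 3118 TPM in A549 and 0.705, 1.15 and 1.28 in Caco2 and rose by 11.50 ± 0.77. AKR1C2 and AKR1C3 were at 3592, 4318 and 5726 TPM in A549 and 28.9, 15 and 21.7 in Caco2 and at 3387, 3838 and 4604 TPM in A549 and 165, 91.1 and 129.8 in Caco2. AKR1C1, AKR1C2 and AKR1C3 are close copies, so the split of reads between them is uncertain. NQO1, the quinone reductase used as a standard NRF2 readout, was at 3840.0, 4219 and 4862 TPM in A549 and 225.9, 287 and 251.4 in Caco2, a rise of 3.95 ± 0.21.

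GCLM, GCLC, SLC7A11, GPX2 and TXNRD1, of glutathione and thioredoxin metabolism, rose, and TXN did not pass. GCLM and GCLC, the 2 subunits of the rate-limiting enzyme of glutathione synthesis, were at 121, 137 and 161 TPM in A549 and 7.91, 8.95 and 12.2 in Caco2 and at 140.2, 149 and 141 TPM in A549 and 28.1, 21 and 34.1 in Caco2. SLC7A11, the cystine importer, was at 58.6, 76 and 75.5 TPM in A549 and 5.52, 4.42 and 6.32 in Caco2. GPX2, a glutathione peroxidase, was at 1116, 1689 and 2203 TPM in A549 and 22.4, 37.3 and 30.1 in Caco2, the largest rise of these 5 at 5.69 ± 0.39. TXNRD1, thioredoxin reductase, was at 981, 1152 and 1198 TPM in A549 and 48.7, 45.9 and 60.2 in Caco2, a rise of 4.19 ± 0.19. Thioredoxin itself, TXN, was at 1313, 1421 and 1723 TPM in A549 and 691, 903 and 520.5 in Caco2; its difference of 0.91 ± 0.26 stayed under 2-fold, and was called at 1.00 without A549 replicate 1, at 1.25 without Caco2 replicate 2 and at 1.10 with limma.

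PGD, TALDO1 and TKT, of the pentose phosphate pathway, rose as well. PGD, which makes NADPH in the oxidative branch, was at 1278, 1387 and 1605 TPM in A549 and 169, 145 and 224.95 in Caco2, a rise of 2.90 ± 0.13. TALDO1 and TKT, of the non-oxidative branch, were at 483, 555 and 546 TPM in A549 and 157, 186 and 173 in Caco2 and at 1507, 1796 and 1601 TPM in A549 and 349.9, 364 and 459.8 in Caco2. ME1, malic enzyme and another NADPH source, was the member that fell, at 62.3, 76.8 and 106 TPM in A549 and 225.6, 156 and 195 in Caco2 (-1.32 ± 0.34). The ferritin genes FTL and FTH1, which store iron, were at 16146, 16668 and 15218 TPM in A549 and 3815, 4236 and 4228 in Caco2 and at 6453, 5549 and 6141 TPM in A549 and 1312, 1398 and 1407 in Caco2. FTL had the highest mean TPM of any coding gene in A549. HMOX1, heme oxygenase 1, was at 49.4, 47.8 and 44.6 TPM in A549 and 58.9, 50.9 and 60.6 in Caco2 and did not pass.

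**Figure D4:**
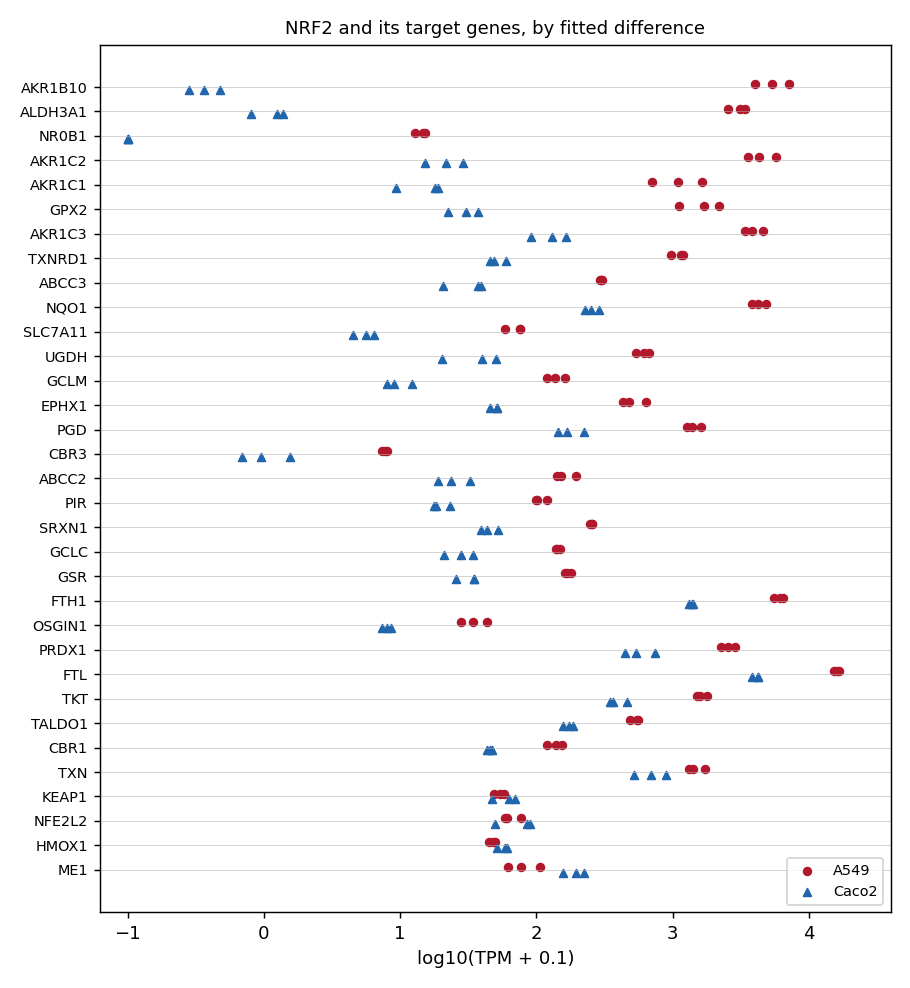
Level of NFE2L2, KEAP1 and NRF2 target genes, 33 of the 34 listed, in each library on a log10(TPM + 0.1) axis, ordered by fitted difference from AKR1B10 down to ME1. Circles are A549 and triangles Caco2 libraries; the circles lie to the right in the genes called higher.

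NRF2 binds the antioxidant response element, whose core was searched as TGACNNNGC on either strand. The core was found in 13.3% of all promoter windows and in 10 of 30 (33.3%) windows of the list, belonging to 9 of 24 matched genes. Only these 24 of the 34 listed genes had a window. GPX2 and GCLM are shown because both rose strongly and each holds 1 match in the bases before its start. The GPX2 stretch is chr14:64942746-64942995 and the GCLM stretch chr1:93909431-93909680, both on the minus strand, with the match in capitals as the reverse complement.
GPX2: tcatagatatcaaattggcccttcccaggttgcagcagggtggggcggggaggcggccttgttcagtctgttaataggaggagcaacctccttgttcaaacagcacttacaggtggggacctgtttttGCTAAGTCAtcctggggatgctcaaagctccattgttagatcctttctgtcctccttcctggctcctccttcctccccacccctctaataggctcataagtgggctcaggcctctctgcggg
GCLM: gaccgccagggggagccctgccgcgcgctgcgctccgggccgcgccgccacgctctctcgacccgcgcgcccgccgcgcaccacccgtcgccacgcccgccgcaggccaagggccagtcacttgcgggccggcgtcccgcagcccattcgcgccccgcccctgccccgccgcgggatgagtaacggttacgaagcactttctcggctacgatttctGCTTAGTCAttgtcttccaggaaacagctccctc
The core also stood in the windows of KEAP1, which did not pass, and ME1, which fell.

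Other detoxification genes went both ways, 7 of 25 tested higher, 10 lower and 8 not passing. ALDH1A1, a retinal dehydrogenase, was at 7999, 9162 and 11009 TPM in A549 and 85.2, 60.3 and 71.7 in Caco2, the second most abundant coding gene of A549. CYP24A1, which inactivates vitamin D, was at 502, 388 and 422 TPM in A549 and 0.431, 4.4 and 1.59 in Caco2, and CYP1B1 at 32.1, 32.5 and 28.2 TPM in A549 and 0.106, 0.0692 and 0.25 in Caco2. On the Caco2 side were GSTA1, a glutathione transferase, at 0.303, 0.716 and 1.68 TPM in A549 and 96, 54 and 58.3 in Caco2, and the carboxylesterase CES1 at 27.3, 28.3 and 32.6 TPM in A549 and 168, 140.4 and 155 in Caco2. CYP1A1, a target of the aryl hydrocarbon receptor as is CYP1B1, was at 0.109, 0.0446 and 0.0905 TPM in A549 and 4.06, 7.56 and 10.9 in Caco2, opposite to CYP1B1.

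Drug efflux pumps were divided between the lines. ABCB1, P-glycoprotein, was at 0, 0.0113 and 0 TPM in A549 and 55.5, 47.7 and 68.2 in Caco2, a difference of -12.36 ± 0.53. ABCG2, breast cancer resistance protein, was at 34, 46.2 and 57.8 TPM in A549 and 3.05, 2.26 and 7.14 in Caco2, and ABCC1, MRP1, at 54, 45.1 and 44 TPM in A549 and 2.28, 2.42 and 5.73 in Caco2. ABCC2 and ABCC3, which the NRF2 list holds, were at 142, 151 and 194 TPM in A549 and 23.5, 19 and 32.4 in Caco2 and at 301, 298 and 291 TPM in A549 and 39.1, 20.6 and 37.4 in Caco2. Each of the 4 ABCG2 and ABCC genes named was higher in A549.

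WNT pathway targets and feedback genes were mainly higher in Caco2. Most colorectal carcinomas carry lesions of APC or beta-catenin that keep this pathway on. Of 24 tested, 14 fell in A549, 4 rose and 6 did not pass (median -1.67). LGR5, the intestinal stem cell receptor, was at 0 TPM in all 3 A549 libraries and 11.1, 2.88 and 10.8 in Caco2, with no assigned read in A549. SP5, a direct target factor, was at 0 TPM in all 3 A549 libraries and 47, 21.2 and 23.5 in Caco2, and LEF1, a nuclear partner of beta-catenin, at 0 TPM in all 3 A549 libraries and 26.1, 24.2 and 20.3 in Caco2, at least 1071-fold and 589-fold lower. ASCL2, a stem cell factor, was at 0, 0.0299 and 0 TPM in A549 and 8.84, 5.6 and 6.65 in Caco2, and the inhibitor NKD1 at 0.154, 0.282 and 0.158 TPM in A549 and 19.8, 8.55 and 15.9 in Caco2.

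AXIN2, the standard feedback gene, was expressed in both lines at 7.39, 6.9 and 7.84 TPM in A549 and 18, 8.95 and 23.4 in Caco2, a difference of -1.41 ± 0.33. RNF43 was at 10.1, 16.1 and 21.7 TPM in A549 and 32.3, 18 and 30.5 in Caco2 and did not pass. DKK1, a secreted WNT inhibitor, was at 222, 281.04 and 309 TPM in A549 and 1159.8, 1565 and 1183 in Caco2 and fell by 2.38 ± 0.28 on the log2 scale. CTNNB1, beta-catenin, rose in A549, at 132, 139 and 145 TPM in A549 and 50.8, 35.8 and 71.7 in Caco2, and CD44 was at 280.7, 303 and 361 TPM in A549 and 77.3, 74.1 and 84 in Caco2. In LGR5, AXIN2 and NKD1 the lowest Caco2 level was in replicate 2.

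Genes that halt the cell cycle, repair DNA or start apoptosis were more often higher than lower in A549. Of 24 tested, 13 rose, 4 fell and 7 did not pass, with a median difference of 1.05. CDKN1A, the kinase inhibitor p21, was at 48.4, 56.3 and 63 TPM in A549 and 11.7, 7.85 and 10.8 in Caco2, a rise of 2.38 ± 0.21. The death receptors FAS and EDA2R were at 8.39, 10.5 and 11.3 TPM in A549 and 0.114, 0 and 0.359 in Caco2 and at 7.17, 8.23 and 8.95 TPM in A549 and 0 in all 3 Caco2 libraries. RRM2B, a ribonucleotide reductase subunit, was at 29, 35.5 and 36.9 TPM in A549 and 5.41, 2.38 and 4.96 in Caco2, and BAX at 192, 222 and 180.1 TPM in A549 and 65.9, 87.6 and 73.9 in Caco2.

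CCNG1, SESN1 and SESN2 were 3 of the 4 that fell, and the other was BTG2, whose call was lost without Caco2 replicate 1 (-0.68). CCNG1, cyclin G1, was at 67, 75.2 and 90.4 TPM in A549 and 479, 189 and 288 in Caco2, and fell by 1.77 ± 0.28 on the log2 scale, and SESN1 and SESN2, the stress-responsive sestrins, were at 3.85, 5.18 and 5.51 TPM in A549 and 30.8, 9 and 21.1 in Caco2 and at 9.69, 4.82 and 3.9 TPM in A549 and 20.2, 17.9 and 25.8 in Caco2. MDM2, a ubiquitin ligase, was at 33.8, 40.5 and 48 TPM in A549 and 88.6, 32.1 and 29.2 in Caco2 and did not pass. Caco2 replicate 1 was highest for CCNG1, SESN1 and MDM2.

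Both lines have well-known mutated cancer genes, among them STK11, KEAP1, SMARCA4 and CDKN2A in A549, and APC, CTNNB1 and SMAD4 in Caco2. These 7 were chosen after their values were seen, and genotypes were not examined. SMARCA4, the ATPase BRG1 of the SWI/SNF complex, was at 3.96, 2.42 and 1.98 TPM in A549 and 76.3, 95 and 70.0 in Caco2, and fell by 4.77 ± 0.29 on the log2 scale. SMAD4 was at 62, 68.3 and 80.2 TPM in A549 and 13.3, 6.35 and 25.5 in Caco2, lower in Caco2, with a fitted difference of 1.14 ± 0.24. STK11, the kinase LKB1, was at 17.6, 17.6 and 16.1 TPM in A549 and 16.4, 13 and 17.2 in Caco2 and APC at 6.12, 6.97 and 8.76 TPM in A549 and 3.83, 2.02 and 4.29 in Caco2, and neither passed. Of the 7 genes, 2 rose in A549, 2 fell and 3 did not pass. Without Caco2 replicate 2 the SMAD4 difference was 0.79 and no longer called, and the APC difference was called at 1.02 to 1.09 when A549 replicate 1 or 2 or Caco2 replicate 1 or 3 was left out.

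Growth factor receptors divided evenly, 12 of 31 tested receptors and ligands higher, 12 lower and 7 not passing. EGFR was at 44.3, 38.6 and 31.4 TPM in A549 and 7.82, 5.13 and 8.39 in Caco2, a rise of 2.41 ± 0.28, and MET, the receptor for hepatocyte growth factor, at 104, 99.8 and 109 TPM in A549 and 25.4, 15.2 and 27 in Caco2. ERBB3 was at 3.99, 4.24 and 5.99 TPM in A549 and 81.9, 41.6 and 53.9 in Caco2, and fell by 3.60 ± 0.25 on the log2 scale. The fibroblast growth factor receptors FGFR2, FGFR3 and FGFR4 all fell, at 0.827, 0.531 and 0.828 TPM in A549 and 53.8, 22.8 and 49.2 in Caco2, at 2.81, 5.38 and 5.01 TPM in A549 and 74.1, 24.9 and 53.9 in Caco2 and at 8.5, 14.1 and 21 TPM in A549 and 95.7, 82.1 and 122 in Caco2. FGFR1 was at 42.7, 35.7 and 30.5 TPM in A549 and 15, 18.4 and 26.3 in Caco2 and did not pass.

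Ligands of the EGF family were divided between the lines. NRG1, the ligand of ERBB3, was at 93.7, 92.7 and 82.8 TPM in A549 and 0, 0 and 0.234 in Caco2 and TGFA at 11.2, 11.9 and 15.8 TPM in A549 and 0.0544, 0 and 0.0725 in Caco2, both higher in A549. AREG and HBEGF were at 30.3, 22.5 and 26 TPM in A549 and 215, 197 and 245 in Caco2 and at 1.62, 1.73 and 1.74 TPM in A549 and 16.6, 11.6 and 12.8 in Caco2, both lower. NRG1 was thus higher in the line with less ERBB3. IGF2, a fetal growth factor, was at 0.239, 0.248 and 0.224 TPM in A549 and 792, 419.7 and 650.0 in Caco2, and IGF1R, through which it signals, at 28.9, 26.7 and 30.3 TPM in A549 and 7.79, 6.14 and 8.68 in Caco2, higher in A549. FGF2 was at 21.1, 20.7 and 19.6 TPM in A549 and 0.0538, 0 and 0.0215 in Caco2 and VEGFC at 9.2, 7 and 7.17 TPM in A549 and 0, 0.0378 and 0 in Caco2, both higher, while VEGFA was at 38.8, 23 and 21 TPM in A549 and 78.1, 66 and 111 in Caco2 and lower.

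The 9p21 region of chromosome 9 holds the cell cycle inhibitors CDKN2A and CDKN2B, and A549 is known to have lost them. CDKN2A (21967753 to 21995301, minus strand, GRCh38) was at 0 TPM in all 3 A549 libraries and 11.8, 17.6 and 13.7 in Caco2 and CDKN2B (22002903 to 22009363, minus strand) at 0 TPM in all 3 A549 libraries and 2.43, 2.55 and 4.83 in Caco2. With no count in A549 they were at least 134-fold and 147-fold lower. MTAP (21802543 to 21937651, plus strand), which salvages methylthioadenosine, was at 0.0869, 0.427 and 0.266 TPM in A549 and 13.2, 12.7 and 14.2 in Caco2, and fell by 5.48 ± 0.28 on the log2 scale.

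Most tested genes around them were higher in A549. FOCAD was at 27.9, 24.8 and 26.5 TPM in A549 and 8.71, 8.18 and 10.6 in Caco2, KLHL9 at 14.2, 17.5 and 21.6 TPM in A549 and 6.3, 3.56 and 5.64 in Caco2 and DMRTA1 at 0.932, 0.988 and 1.05 TPM in A549 and 0.0166, 0.013 and 0.0134 in Caco2. Farther along, TUSC1 was at 2.91, 4.04 and 4.07 TPM in A549 and 0.633, 0.266 and 0.434 in Caco2, CAAP1 at 24.5, 23.4 and 27.3 TPM in A549 and 6.77, 2.56 and 5.12 in Caco2, PLAA at 29.5, 32.5 and 36.4 TPM in A549 and 9.42, 7.47 and 13.4 in Caco2 and IFT74 at 21.2, 19.7 and 23.9 TPM in A549 and 3.34, 2.33 and 2.17 in Caco2. PLIN2 was at 19.1, 21.1 and 23.6 TPM in A549 and 60.1, 31.6 and 54.9 in Caco2 and LRRC19 at 0.0272, 0.0426 and 0.0523 TPM in A549 and 0.253, 0.0227 and 0.174 in Caco2, and both were called lower; they were chosen after their values were seen. LRRC19 lost its call with DESeq2, with no low-count filter and on leaving out any library but Caco2 replicate 2 (-1.31 to -2.07). MLLT3 and ELAVL2 did not pass. Of 13 tested genes of the 9p21 list, 8 rose, 3 fell and 2 did not pass, and the 3 that fell were MTAP, CDKN2A and CDKN2B. AL359922.1, a gene model of 21802636 to 22032986 that starts within MTAP and runs past CDKN2B, was at 11.9, 10.8 and 13.1 TPM in A549 and 0.968, 0.794 and 0.514 in Caco2 and rose by 3.84 ± 0.78. It was chosen after its values were seen, and reads it shares with MTAP make it uncertain. DNA copy number was not measured.

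**Figure D5:**
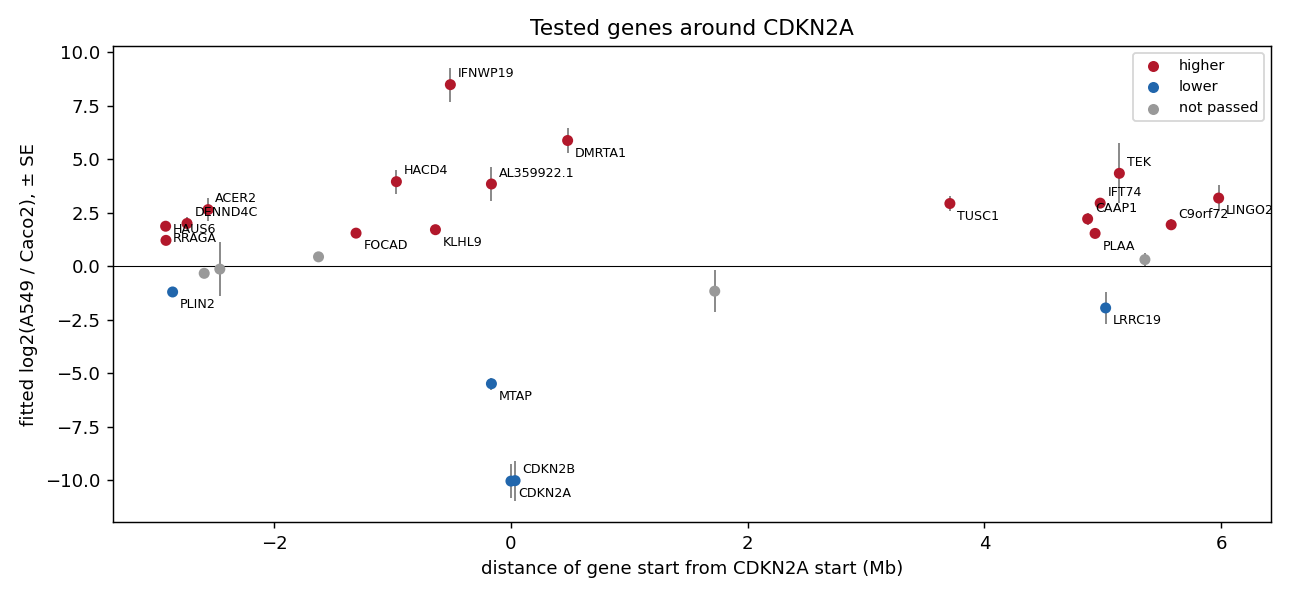
Fitted log2 difference of A549 over Caco2, with its SE, for the 27 tested genes around CDKN2A, against the distance of each gene start from the CDKN2A start. MTAP, CDKN2A and CDKN2B lie low in the centre; 17 of the 27 genes were called higher and 5 lower. The fitted positions of CDKN2A and CDKN2B, at 0 counts in A549, are not bounds.

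Oncofetal genes, active in the embryo and in some tumours, had no higher call: of 15 tested, 12 fell in A549 and 3 did not pass (median -2.00). By edgeR at an unadjusted p under 0.05 0 were higher, and DESeq2 and limma also called 0. AFP, alpha-fetoprotein, was at 1.12, 0.782 and 1.55 TPM in A549 and 32.7, 18.7 and 15 in Caco2. The RNA-binding proteins IGF2BP1 and IGF2BP2 were at 33, 27.8 and 28.4 TPM in A549 and 64.2, 59.3 and 89.6 in Caco2 and at 11.4, 9.73 and 11.3 TPM in A549 and 76.6, 57.7 and 87.2 in Caco2, and PEG10, an imprinted retrotransposon-derived gene, at 32.1, 34.2 and 37.5 TPM in A549 and 272, 179.9 and 119.6 in Caco2. IGF2BP3 was at 42.7, 37.2 and 37.9 TPM in A549 and 26.1, 19.8 and 43.6 in Caco2 and did not pass. GPC3, IGF2 and AFP also stand in the sets above, so these counts are not separate observations.

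HOX genes, which record position along the body axis, were expressed in both lines with 9 of 37 tested higher, 14 lower and 14 not passing (median -0.71). HOXB8 was at 9.05, 13.4 and 13.5 TPM in A549 and 0.866, 0.748 and 1.33 in Caco2, a rise of 3.73 ± 0.34, and HOXC9 at 7.68, 8.59 and 8.35 TPM in A549 and 1.86, 0.217 and 1.66 in Caco2. HOXA4 was at 1.17, 1.36 and 0.815 TPM in A549 and 10.9, 6.33 and 8.37 in Caco2 and HOXC8 at 2.01, 1.87 and 1.65 TPM in A549 and 7.17, 6.18 and 7.28 in Caco2, both lower. HOXC12 was at 0 TPM in all 3 A549 libraries and 3.36, 2.37 and 2.72 in Caco2, with no count in A549. HOXB13, the most posterior gene of its cluster and typical of distal gut and prostate, was at 6.11, 7.61 and 8.45 TPM in A549 and 3, 2.13 and 3.23 in Caco2 and was higher in A549. HOXB7 had the highest level of the family in both lines, at 33.1, 41.2 and 41.1 TPM in A549 and 72.3, 37.5 and 60.6 in Caco2, and did not pass. Neighbouring HOX genes share transcripts across a cluster, so reads may be split between them.

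Chemokines and immune genes of the NF-kB and interferon responses gave 9 higher, 7 lower and 10 not passing of 26 tested. The neutrophil attractants CXCL5, CXCL8 and CXCL1 were at 109, 231 and 397 TPM in A549 and 0.0384, 0.0301 and 0.0311 in Caco2, at 11.9, 7.1 and 16.7 TPM in A549 and 0.18, 0.705 and 0.31 in Caco2 and at 21.4, 19.7 and 36.5 TPM in A549 and 0.563, 0.199 and 0 in Caco2, all higher in A549. CD274, the checkpoint ligand PD-L1, was at 1.62, 1.9 and 2.09 TPM in A549 and 0.039, 0 and 0 in Caco2. ICAM1 was at 0.393, 1.2 and 0.623 TPM in A549 and 12.5, 18.9 and 18.1 in Caco2, TNFAIP3, which ends NF-kB signalling, at 1.06, 1.16 and 0.721 TPM in A549 and 17.1, 16.2 and 18.6 in Caco2, and the ubiquitin-like ISG15 at 2.16, 2.83 and 1.03 TPM in A549 and 57.6, 16.7 and 34.6 in Caco2, all lower. NF-kB targets thus stood on both sides. The HLA genes lie among near-identical alternative sequences, and their values are not interpreted.

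S phase and mitosis genes were the least divided list, with 1 of 24 tested higher, 3 lower and 20 not passing, fewer calls than the 41.2% of all genes. TOP2A, topoisomerase II, was at 269, 277 and 249.4 TPM in A549 and 134, 99.3 and 96.5 in Caco2 and rose by 1.67 ± 0.53. E2F1, a driver of S phase entry, was at 22, 25 and 17.3 TPM in A549 and 66.7, 51.2 and 69.7 in Caco2, AURKA at 90.6, 97.4 and 87.1 TPM in A549 and 215, 168 and 201.5 in Caco2 and MCM3 at 90.9, 81.4 and 69 TPM in A549 and 155, 165 and 178 in Caco2, all lower. CCNB1 was at 281.7, 281.1 and 254 TPM in A549 and 303, 288.9 and 291 in Caco2 and PCNA at 459, 518 and 495 TPM in A549 and 279, 262 and 286 in Caco2, and neither passed. The lower calls changed when single libraries were left out: 1 of the 3 was left without A549 replicate 3, and 1 without Caco2 replicate 2. MCM3 differed by -0.96 and -0.99 there. AURKA was not called when any 1 of the 6 libraries was left out, at -1.17 to -1.27. In the fit of all lines AURKA differed by -1.21 (adjusted p = 0.0391, edgeR). With only the 6 A549 and Caco2 libraries fitted, AURKA differed by -1.25 (adjusted p = 5.03e-05, edgeR). The adjusted p of MCM3 was 0.00715 with all lines and 0.000434 with only the 6 libraries (edgeR). That of TOP2A was 0.00974 and 1.46e-05 (edgeR). Why the fits differed was not tested.

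Markers of other cell types had a low summed level in both lines, with some members above 10 TPM. Of 28 listed genes, 22 were tested, 5 rose, 11 fell and 6 did not pass, against 21.5% higher and 19.8% lower over all genes. The summed level of the list was 49.1, 55.9 and 54.5 TPM in A549 and 63.9, 65 and 91.2 in Caco2. ACTA2, smooth muscle actin, was at 9.27, 10.9 and 16.6 TPM in A549 and 0.357, 0.209 and 0.442 in Caco2 and rose. MYH6 was at 0 in all 6 libraries, and PECAM1, the endothelial antigen CD31, was at 0.128, 0.264 and 0.193 TPM in A549 and 0.921, 0.834 and 1.74 in Caco2. CD68, a lysosomal protein that is not limited to macrophages, was at 22.8, 23.6 and 16.4 TPM in A549 and 5.01, 5.41 and 6.63 in Caco2, and COL1A1 at 3.53, 4.22 and 2.89 TPM in A549 and 8.45, 7.88 and 17.8 in Caco2. A part of other cells in the results was not tested.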

How the data were processed

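Per the file headers, the authors deposited for each library an estimated count and a TPM per transcript. Kallisto 0.43.1, CASAVA 1.8 and the build GRCh 38 are listed in the submitters' processing notes; the annotation release behind the index is not given in the sources used here. Of 176241 transcripts, 159887 matched GENCODE 29 and were summed to 34584 genes; the unmatched ones held 0.75 to 3.06% of a library's counts.

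Deposited estimated counts were rounded after summing. All 27 libraries, 3 for each of 9 lines, entered 1 fit in edgeR 4.0.16 (R 4.3.3), with 1 coefficient per line, TMM scaling, a low-count filter and a robust quasi-likelihood test. The contrast was A549 minus Caco2. The fit's common biological coefficient of variation was 24.2%, and the fit was tested on simulated data. P-values measure the spread between these libraries, which may be technical. Deposited TPM values were summed to genes without further scaling.

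The 19 gene lists and the members named were chosen with earlier results of these data known. Genes were named by rule: the 12 coding genes with the largest call in each direction at 10 TPM or more; up to 4 called members per list and direction at 1 TPM or more; members of the lung, enterocyte, endoderm, keratin, 9p21 and HOX lists; up to 3 abundant members not passing; and the 5 most abundant genes of a line. Not every gene the rule allows is printed, and genes named outside it illustrate a pathway and were chosen after their values were seen. List counts are descriptions without a test. Some listed genes are not reported here. Promoters are RefSeq sequences of GRCh38.p14. DESeq2 1.42.0 and limma 3.58.1 served as alternatives.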

Additional observations from a re-analysis of the deposited data

How the results depend on the processing

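The count of genes higher in A549 ranged from 2982 to 3795 and the count lower from 2210 to 3677 over 13 other settings. Leaving out each library in turn gave 3349 to 3760 higher and 3211 to 3501 lower. More genes were lower than higher with relative log expression factors (3446 and 3611), without HepG2 libraries (3443 and 3677), with DESeq2 (3381 and 3504), without mitochondrial genes (3455 and 3596) and without Caco2 replicate 2 (3349 and 3501). The larger direction was thus not stable over these settings.

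With limma on log2(TPM + 1), which understates low genes, 2210 genes were lower, and the counts were 1 for lower mucin genes, 5 for higher HOX genes, 4 for lower NF-kB and interferon genes, 0 for higher S phase and mitosis genes, and 3 higher and 7 lower for markers of other cells. For S phase and mitosis genes the higher count was 2 with only the 6 libraries and 0 with DESeq2, and the lower count ranged from 1 to 3 on leaving out a library. DESeq2 gave no adjusted p for TOP2A, the gene of that list called higher in the main fit. The higher count of the 7 mutated cancer genes moved by more than 1.5 times without Caco2 replicate 2, where SMAD4 lost its call. No other list count moved by more than 1.5 times in the settings run. The cause was not tested.

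Of the genes named in the report, 27 changed call or sign somewhere, and 16 of those called lost the call. A setting in which a gene was not tested or had no adjusted p, as for NKX2-1 and SI with limma, was left out of these counts. With limma the calls of AURKA, AXIN2, BTG2, DMRTA1, PECAM1, SNAI2, TOP2A and ZEB2 were lost. None of the 7 genes that changed sign was called in the report. KEAP1 became -0.029 without HepG2, -0.016 with relative log expression factors, -0.015 with DESeq2, -0.144 with limma and -0.009 without mitochondrial genes, and ranged from -0.029 to 0.109 on leaving out a library. FN1 became -1.002 with limma, where it was called lower. On leaving out a library FN1 ranged from -0.063 to 0.46, IGF2BP3 from -0.171 to 0.432 and FABP2 from -0.513 to 0.848. With limma MDM2 was -0.114, STK11 0.14 and TJP1 -0.125. Of 7101 called genes, 21 had mean TPM in the other order.

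No paired analysis was possible because the labels give no replicate number: replicates 1 to 3 are names given here in the order of the sample records and pair nothing, and the P numbers in the sample titles do not overlap between the lines. Depth limits genes near 0 counts, where only a lower bound on the fold can be given.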

Other observations

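Ribosomal protein genes, a list taken after the data were seen, were lower in A549 or did not pass. Their summed level was 187944, 173889 and 167433 TPM in A549 and 295844, 290097 and 281296 in Caco2. Of 77 tested, 33 fell, 44 did not pass and 0 rose, against 19.8% lower and 21.5% higher over all genes, with a median difference of -0.91. RPS3, of the small subunit, was at 3685, 3214 and 2886 TPM in A549 and 10220.5, 11326 and 11111 in Caco2. RPS21 was at 2237, 2431 and 2119.7 TPM in A549 and 10061, 9219.6 and 9189.9 in Caco2. RPL41, of the large subunit, was at 8754, 8014 and 7471 TPM in A549 and 8724, 8542 and 9351 in Caco2 and did not pass. EEF1A1, which brings transfer RNA to the ribosome, was the most abundant coding gene of Caco2, at 7083, 7061 and 7173 TPM in A549 and 13934, 11753 and 17294 in Caco2; it fell by 1.06 ± 0.16 on the log2 scale (edgeR). Ribosomal protein genes have many processed copies in the genome, and the split of reads among them was not tested.

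Called genes were not spread evenly over the genome. On chromosome 20, 50.8% of the 301 tested genes starting between 30 and 70 Mb were lower in A549 and 10.6% higher, with a median difference of -1.21. The 151 genes before 30 Mb had 13.2% lower and 28.5% higher calls, with a median of 0.32. On chromosome 9, 58.5% of the 82 genes before 30 Mb were higher and 12.2% lower, with a median of 1.52. Of the windows of 10 Mb with at least 20 tested genes, 22 had a median beyond 1 in either direction. The lowest was chromosome 20 from 60 to 70 Mb, at -1.58, and the highest chromosome 9 from 70 to 80 Mb, at 2.32. The windows were defined after the data were seen, and DNA copy number was not measured.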
